A study of Mus musculus with 6 samples.

Results

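Ido1, Sptssb, Sval1, Ccl6, Ccl9, Kcnk6 and Pla2g10 are 7 of the 23845 genes in the deposited count table of mouse intestinal epithelial cells. They were chosen from these same libraries: genes other than mucins, glycosylation enzymes and lineage factors that stood far higher in EGFP cells than in EYFP cells, most of them also above wild-type cells in EGFP and below them in EYFP. Their levels in the 3 groups are therefore given as a description, with no test. RNA was sequenced in 6 libraries in 3 groups of 2. EGFP cells, of genotype Neurog3+/-EGFP, carried 1 allele of Neurog3 and came from strain C57BL6. EYFP cells, of genotype Neurog3+/+EYFP, carried 2 alleles and came from a mixed background of C57BL6 and CD1. Wild-type cells were C57BL6, and their titles point to duodenum. All 3 groups were labelled intestinal epithelial cells, and the reporter cells were sorted by flow cytometry for Neurog3 expression. The sources used here state neither the age and sex of the animals nor the sorting gates, the gut segment of the reporter cells or any sort of the wild-type cells. EGFP and EYFP cells thus differed in Neurog3 dose, reporter and strain background together. They also differed in Xist and Ddx3y, genes that mark sex, as given below. These differences cannot be told apart.

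Neurog3 encodes the transcription factor that starts the enteroendocrine programme in gut progenitors. Goblet and Paneth cells, the mucus and antimicrobial secretory cells of the gut, arise from progenitors shared with that lineage. The 7 genes belong to different pathways. Ido1 encodes an enzyme that opens the tryptophan ring at the start of the kynurenine pathway and is known as a target of interferon gamma. Sptssb encodes a small subunit of serine palmitoyltransferase, the enzyme that starts sphingolipid synthesis. Pla2g10 encodes a secreted phospholipase A2 that frees arachidonic acid from membrane phospholipids. Ccl6 and Ccl9 encode rodent CC chemokines, best known from myeloid cells. Kcnk6 encodes a tandem pore domain potassium channel, and Sval1 encodes a secreted protein of the seminal vesicle antigen family.

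The sequences just upstream of the genes are shown first. The members lie on 6 chromosomes, and their shared change between EGFP and EYFP is how they were chosen. RefSeq promoters of build GRCm38.p6 were matched for 5 of the 7 genes; Ido1 and Kcnk6 are named only. Each run is the 250 bases before the annotated start, 5′ to 3′ on the gene's strand, with the E-box pattern CANNTG in capitals, the pattern bound by basic helix-loop-helix factors such as Neurog3. The windows are chr3:69859895-69860144 on the minus strand for Sptssb, chr6:41951378-41951627 on the plus strand for Sval1, chr11:83593088-83593337 on the minus strand for Ccl6, chr11:83578637-83578886 on the minus strand for Ccl9 and chr16:13730485-13730734 on the minus strand for Pla2g10. The RefSeq starts used for Sptssb and Pla2g10 lie inside the longer gene bounds given below.
Sptssb: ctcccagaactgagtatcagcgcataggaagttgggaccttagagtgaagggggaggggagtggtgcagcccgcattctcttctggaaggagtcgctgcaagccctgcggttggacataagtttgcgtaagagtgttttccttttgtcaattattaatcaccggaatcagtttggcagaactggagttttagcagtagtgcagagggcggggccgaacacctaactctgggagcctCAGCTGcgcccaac
Sval1: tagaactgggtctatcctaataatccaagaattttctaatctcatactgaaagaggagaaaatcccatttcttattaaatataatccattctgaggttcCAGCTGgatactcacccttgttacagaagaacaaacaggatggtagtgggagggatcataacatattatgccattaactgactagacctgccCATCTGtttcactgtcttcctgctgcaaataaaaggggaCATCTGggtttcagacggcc
Ccl6: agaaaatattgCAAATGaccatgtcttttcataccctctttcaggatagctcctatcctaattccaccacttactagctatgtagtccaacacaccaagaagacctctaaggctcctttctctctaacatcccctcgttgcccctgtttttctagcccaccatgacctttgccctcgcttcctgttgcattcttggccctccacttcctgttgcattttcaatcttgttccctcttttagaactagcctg
Ccl9: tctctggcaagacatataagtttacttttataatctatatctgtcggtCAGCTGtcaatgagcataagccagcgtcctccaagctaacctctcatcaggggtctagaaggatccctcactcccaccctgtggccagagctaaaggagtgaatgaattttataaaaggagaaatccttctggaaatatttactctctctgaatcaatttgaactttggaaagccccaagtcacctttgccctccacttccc
Pla2g10: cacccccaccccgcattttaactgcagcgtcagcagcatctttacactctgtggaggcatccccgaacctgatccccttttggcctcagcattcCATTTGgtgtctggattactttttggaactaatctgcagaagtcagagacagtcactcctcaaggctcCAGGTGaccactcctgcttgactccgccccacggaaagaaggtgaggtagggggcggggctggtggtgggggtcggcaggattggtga

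CANNTG, which reads the same on both strands, was present in 5 of the 5 windows, with 1 match in Sptssb, 3 in Sval1, 1 in Ccl6, 1 in Ccl9 and 2 in Pla2g10. It was present in 66.2% of all 32851 promoter windows of this length. The form CAGCTG, which is contained in CANNTG, was present in the windows of Sptssb, Sval1 and Ccl9 and in 13.0% of all windows. The match nearest to the start lay 9 bases before it in Sptssb, 15 in Sval1, 83 in Pla2g10, 197 in Ccl9 and 234 in Ccl6. These matches are letters in a window, and no binding was measured.

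Across the whole table the libraries held between 7938358 counts (EGFP replicate 1) and 20589683 counts (wild-type replicate 2). Levels as CPM, the counts scaled to a fixed total of reads, were taken over library sizes scaled by TMM, and 13935 genes passed the filter on low counts. Neurog3 itself stood at 120 and 179 CPM in EGFP, 563 and 348 CPM in EYFP, and 6.0 and 6.39 CPM in wild type. Xist, expressed from the inactive X chromosome of female cells, stood at 966 and 969 CPM in EGFP, 0.634 and 2.36 CPM in EYFP, and 1.17 and 726 CPM in wild type. Ddx3y, a gene of the Y chromosome, stood at 0 and 0 CPM in EGFP and 37.3 and 39.3 CPM in EYFP. In wild type it stood at 62.4 and 0.121 CPM. By these genes the EGFP libraries read as female and the EYFP libraries as male. Sex thus differed together with Neurog3 dose, reporter and strain background. The wild-type group held a library of each kind. The levels of the 7 genes in the wild-type libraries differed between replicates by at most 1.93-fold, in Sptssb, which had 7 and 5 counts there. This is 1 library of each kind, and whether sex bears on the 7 genes in EGFP and EYFP was not tested. In these bulk libraries, fewer cells of a type and less RNA per cell cannot be told apart.

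All 7 genes were higher in both EGFP libraries than in both EYFP libraries, and all 7 were higher in both EGFP libraries than in both wild-type libraries. Among all genes tested, 37.0% had both EGFP libraries above both EYFP libraries and 35.0% had both above both wild-type libraries. In 6 of the 7 genes the wild-type libraries also lay above both EYFP libraries, which gives the order EGFP, wild type, EYFP without overlap. That order was seen in 586 of the 13935 genes, or 4.21%. The exception was Pla2g10. These shares are the selection itself, and nothing further is read from them. The median log2 fold change over the 7 genes was 7.27 for EGFP over EYFP, or 6.49 with Sptssb and Sval1 at the bounds that 0 counts allow, against -0.01 over all genes tested. It was 3.97 for EGFP over wild type, against 0.0 over all genes. For EYFP over wild type it was -2.85 with the bounds, against -0.12 over all genes. Without the bounds it was -4.2, the fitted value of Sval1, which had 0 counts in EYFP.

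**Figure D1:**
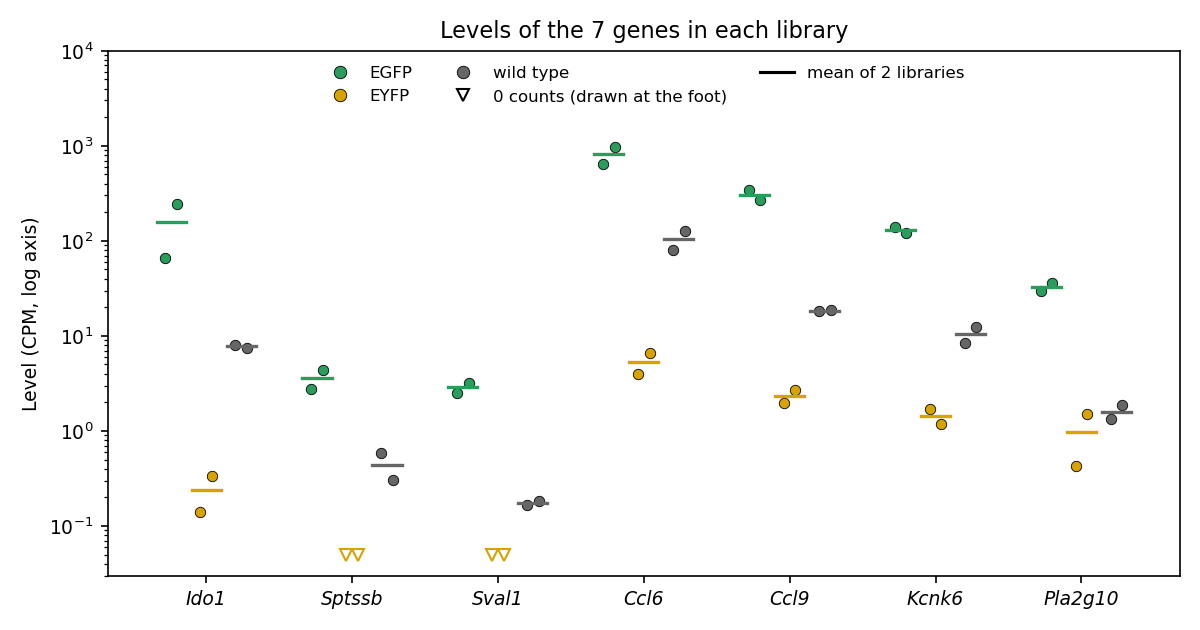
Level of each of the 7 genes in each library, in CPM on a log axis; points are libraries, bars are means of 2 libraries, and open triangles at the foot are libraries with 0 counts. EGFP libraries lie highest for all 7 genes, and Pla2g10 is the gene whose EYFP and wild-type libraries overlap.

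Ido1 (chr8:24584133-24596952, minus strand, build GRCm38) had the largest fold change between EGFP and EYFP of the 5 genes with counts in EYFP. Its level was 65.7 and 245 CPM in EGFP, 0.141 and 0.336 CPM in EYFP, and 8.08 and 7.54 CPM in wild type. The EYFP values rest on 2 and 4 counts, against 97 and 125 counts in wild type. The mean level was 651-fold higher in EGFP than in EYFP (log2 fold change 9.34 ± 1.04, SE) and 19.9-fold higher in EGFP than in wild type (4.32 ± 0.70). It was 32.7-fold lower in EYFP than in wild type (-5.02 ± 1.14). The groups did not overlap, but the EGFP libraries differed from each other by 3.73-fold, the largest replicate difference within EGFP among the 7 genes. Without EGFP replicate 2, the higher of the pair, the log2 fold change was 8.10 over EYFP and 3.08 over wild type, and without EGFP replicate 1 it was 9.95 and 5.08. The log2 value of EYFP over wild type was -4.49 with EYFP replicate 1 left out and -5.7 with EYFP replicate 2 left out.

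The lipid enzymes were at very different levels. Pla2g10 (chr16:13715057-13731094, minus strand) stood at 29.7 and 35.6 CPM in EGFP, 0.423 and 1.51 CPM in EYFP, and 1.33 and 1.87 CPM in wild type. Its mean was 33.7-fold higher in EGFP than in EYFP (log2 fold change 5.11 ± 0.47) and 20.4-fold higher in EGFP than in wild type (4.32 ± 0.44). The EYFP and wild-type libraries of Pla2g10 overlapped, with a mean 1.65-fold lower in EYFP (-0.78 ± 0.52). The EYFP value turned on the library: the log2 fold change of EGFP over EYFP came to 4.42 with EYFP replicate 1 left out and to 6.24 with EYFP replicate 2 left out. For EYFP over wild type, leaving out EYFP replicate 1 gave -0.1 and leaving out EYFP replicate 2 gave -1.92, so the place of EYFP against wild type turned on the library too.

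Sptssb (chr3:69819538-69861363, minus strand) was a low gene, at 2.77 and 4.40 CPM in EGFP, 0 in EYFP replicates 1 and 2, and 0.583 and 0.302 CPM in wild type. These are 23 and 52 counts in EGFP, 0 and 0 in EYFP, and 7 and 5 in wild type. With 3 counts over the EYFP group as the floor, or 0.115 CPM, the level was at least 31.2-fold higher in EGFP than in EYFP, and at least 3.84-fold lower in EYFP than in wild type. The mean was 8.11-fold higher in EGFP than in wild type (log2 fold change 3.04 ± 0.60). Floors of this kind allow for counting error in the group at 0 only. They leave out that of the other group and the spread between libraries.

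Sval1 (chr6:41951628-41956098, plus strand) had the same shape at a similar level. It stood at 2.53 and 3.21 CPM in EGFP, 0 in EYFP replicates 1 and 2, and 0.167 and 0.181 CPM in wild type. The counts were 21 and 38 in EGFP, 0 and 0 in EYFP, and 2 and 3 in wild type, so Sval1 was detected in EGFP and lay near the limit of detection elsewhere. The level was at least 25.0-fold higher in EGFP than in EYFP. In wild type it lay 1.51-fold above the EYFP floor, which rests on 2 and 3 counts, so no fall in EYFP is shown. The mean was 16.5-fold higher in EGFP than in wild type (3.97 ± 0.62).

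Ccl6 and Ccl9 lie next to each other on the minus strand of chromosome 11. Ccl6 (chr11:83587886-83593087) stood at 642 and 980 CPM in EGFP, 3.95 and 6.65 CPM in EYFP, and 80.9 and 128 CPM in wild type. Its mean was 153-fold higher in EGFP than in EYFP (log2 fold change 7.27 ± 0.44), 7.78-fold higher in EGFP than in wild type (2.96 ± 0.35) and 19.7-fold lower in EYFP than in wild type (-4.31 ± 0.39). No groups overlapped.

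Ccl9 (chr11:83572917-83578636) stood at 346 and 269 CPM in EGFP, 1.97 and 2.69 CPM in EYFP, and 18.2 and 18.5 CPM in wild type. Its mean was 132-fold higher in EGFP than in EYFP (log2 fold change 7.05 ± 0.24), 16.8-fold higher in EGFP than in wild type (4.07 ± 0.20) and 7.86-fold lower in EYFP than in wild type (-2.98 ± 0.22). The groups were again apart, and the replicates were close. The excess of EGFP over wild type was larger for Ccl9 than for Ccl6, and the deficit of EYFP was smaller; this difference between the genes was not tested.

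Kcnk6 (chr7:29221928-29232522, minus strand) stood at 140 and 122 CPM in EGFP, 1.69 and 1.18 CPM in EYFP, and 8.49 and 12.4 CPM in wild type. Its mean was 91.4-fold higher in EGFP than in EYFP (log2 fold change 6.49 ± 0.28), 12.5-fold higher in EGFP than in wild type (3.64 ± 0.23) and 7.29-fold lower in EYFP than in wild type (-2.85 ± 0.27). The groups did not overlap and the EGFP libraries were close to each other.

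Levels of different genes were compared per kilobase of transcript. In EGFP, Ccl6 was highest at a mean of 563 CPM per kilobase, followed by Ccl9 at 102, Ido1 at 96.7, Kcnk6 at 32.1, Pla2g10 at 27.3, Sval1 at 4.67 and Sptssb at 2.79 CPM per kilobase. The libraries of Ccl9 lay within the range of Ido1, and the ranges of Kcnk6 and Pla2g10 met, so those neighbours were not separated. In EYFP the order was Ccl6 at 3.68, Pla2g10 at 0.812, Ccl9 at 0.776, Kcnk6 at 0.351 and Ido1 at 0.148 CPM per kilobase, with Sval1 and Sptssb at 0; the range of Pla2g10 held that of Ccl9 and overlapped that of Kcnk6, so these were not separated. In wild type it was Ccl6 at 72.4, Ccl9 at 6.10, Ido1 at 4.86, Kcnk6 at 2.56, Pla2g10 at 1.34, Sptssb at 0.345 and Sval1 at 0.282 CPM per kilobase, with Sval1 inside the range of Sptssb. Ccl6 led in all 3 groups, while Ido1 stood close to Ccl9 in EGFP and last of the detected genes in EYFP.

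Reads of 50 bases can be shared between genes. No 50-base stretch of the Ido1, Sptssb, Sval1, Ccl6 or Pla2g10 transcript occurred in a transcript of another gene, while 59 of 2957 stretches of Ccl9 (2.0%) and 31 of 4035 of Kcnk6 (0.768%) did. Ccl9 and Kcnk6 were also the members with fractional estimated counts in 6 of 6 libraries, so a small part of their counts is uncertain. By gene bounds, E230016K23Rik overlaps Ccl6 and Pla2g10os overlaps Pla2g10 on the opposite strand. The Ccl6 and Pla2g10 transcripts nevertheless had 0 stretches of 50 bases in a transcript of another gene. The submitters' notes name no strand setting for the counting. The part of these overlaps in the counts of Ccl6 and Pla2g10 was not tested further.

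The shapes of the 7 profiles were compared as log2 CPM in the 6 libraries after subtracting each gene's mean, with the root mean square difference as the measure of likeness. Ccl9 and Kcnk6 were most alike, 0.384 apart on the log2 scale, followed by Sptssb and Sval1, 0.41 apart. Sptssb and Sval1 had 0 counts in EYFP and few in wild type, so low counts limit what their likeness shows. Ccl6 was about as far from its neighbour Ccl9 (0.682) as from Ido1 (0.669). Ido1 and Sval1 were least alike (1.85), with Sval1 limited by its low counts.

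Among all tested genes, the 10 nearest to the mean profile of the 7 were Bcas1, Myof, Capn9, Fcgbp, Id4, Tpsg1, Spdef, Ano7, Chrm1 and Gfi1, at distances of 0.249 to 0.456. The mean profile carries the difference by which the 7 were chosen, so the nearest genes share that difference by construction. No cell type is read from them. Fcgbp encodes a mucus protein of goblet cells, Spdef and Gfi1 encode transcription factors of the secretory lineages, and Id4 encodes an inhibitor of basic helix-loop-helix factors. Bcas1, the nearest, stood at 147 and 204 CPM in EGFP, 1.55 and 3.70 CPM in EYFP, and 13.5 and 19.2 CPM in wild type. Spdef stood at 276 and 248 CPM in EGFP, 1.76 and 3.45 CPM in EYFP, and 14.9 and 29.7 CPM in wild type. Both had the order EGFP, wild type, EYFP without overlap, as did all of the 7 genes but Pla2g10. With a smaller prior count of 0.5, 9 of the 10 genes were again among the nearest, all but Chrm1.

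The genes nearest to single members were Zg16 for Ido1 (distance 0.542), Scnn1a for Sptssb (0.341), Rasd2 for Sval1 (0.226), Spink4 for Ccl6 (0.361), Spdef for Ccl9 (0.366), Tpsg1 for Kcnk6 (0.295) and Agr2 for Pla2g10 (0.204). Zg16, Spink4 and Agr2 encode secretory proteins of goblet cells. Only Zg16 and Agr2 stayed nearest with the prior count of 0.5. Likeness over 6 libraries in 3 groups is mostly likeness of group means.

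**Figure D2:**
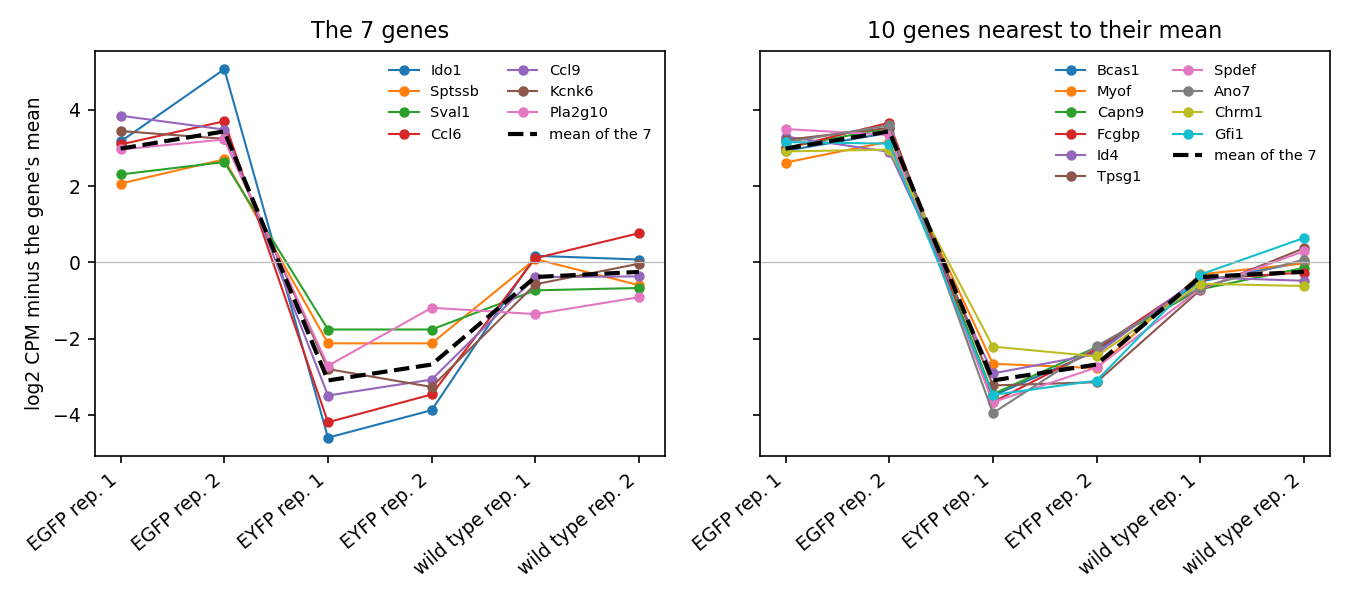
Level profiles of the 7 genes (left) and of the 10 genes nearest to their mean (right), as log2 CPM minus each gene's own mean, in the 6 libraries; the dashed line is the mean of the 7, and lines only join the values of a gene. Ido1 spreads most between the EGFP libraries, and Pla2g10 departs from the others between EYFP and wild type.

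Most markers of goblet cells were highest in EGFP. The summed level of 13 goblet cell genes was 65474 to 104472 CPM in EGFP, 790 to 1926 CPM in EYFP and 5894 to 8835 CPM in wild type, with no marker at 0 in both libraries of a group. Of the 13, 12 were higher in EGFP than in EYFP and 0 were lower, where 19.4% of all tested genes were higher and 16.8% lower. In EGFP over wild type 10 were higher and 0 lower (8 higher and 1 lower without wild-type replicate 1), and in EYFP over wild type 1 was higher and 9 lower. Paneth cell markers summed to 14203 to 18263 CPM in EGFP, 393 to 718 CPM in EYFP and 13597 to 20810 CPM in wild type, with 8 of 9 higher in EGFP than in EYFP and 0 lower. Tuft cell markers summed to 105 to 180 CPM in EGFP, 5.0 to 13.5 CPM in EYFP and 20.4 to 84.4 CPM in wild type, with Gfi1b, Il25 and Gng13 at 0 in both EYFP libraries. Enteroendocrine markers went the other way, at 9110 to 13604 CPM in EGFP, 45738 to 60625 CPM in EYFP and 512 to 575 CPM in wild type, with 0 of 10 higher and 9 lower in EGFP than in EYFP. With any EGFP or EYFP library left out, at least 11 of the 13 goblet cell genes were higher and at least 8 enteroendocrine genes lower. The part of these cell types in the levels of the 7 genes was not tested.

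Ccl6 and Ccl9 are best known from myeloid cells, so markers of macrophages, monocytes and dendritic cells were read beside them. The summed level of 14 such genes was 30.6 to 71.8 CPM in EGFP, 26.2 to 308 CPM in EYFP and 56.6 to 57.0 CPM in wild type, with Fcgr1 at 0 in both EGFP libraries. Lyz2, the macrophage lysozyme, stood at 0.482 and 29.3 CPM in EGFP, 207 and 0.168 CPM in EYFP, and 2.58 and 2.65 CPM in wild type. EYFP replicate 1, which held most Lyz2, had Ccl6 at 3.95 CPM. EGFP replicate 1, which had Ccl6 at 642 CPM, had Csf1r, C1qb, C1qc and Tyrobp at 0. It held Itgam at 12.8 CPM, Cd14 at 9.53 CPM and C1qa at 4.1 CPM. EGFP replicate 2, with Ccl6 at 980 CPM, had Csf1r at 3.3, C1qb at 2.11, C1qc at 1.27 and Tyrobp at 0.846 CPM. That library held Itgam at 10.9 CPM, Cd14 at 14.3 CPM and C1qa at 6.76 CPM. The part of myeloid cells in the levels of Ccl6 and Ccl9 was not tested. Without EYFP replicate 1 the log2 fold change of EGFP over EYFP was 6.93 for Ccl6 and 6.83 for Ccl9. Of the 11 markers tested, Itgam (2.38 ± 0.24, adjusted p = 0.00055) and Cd14 (2.13 ± 0.49, adjusted p = 0.014) were higher in EGFP than in EYFP and C1qa was lower (-2.13 ± 0.44, adjusted p = 0.01), by edgeR's quasi-likelihood test. The call of Cd14 was lost when EGFP replicate 2 (adjusted p = 0.07) or either EYFP library was left out (0.072 without replicate 1 and 0.076 without replicate 2). That of C1qa was lost without EGFP replicate 1 (0.064) or EYFP replicate 1 (0.058), where its value was -1.46.

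T cell markers summed to 10.1 to 33.2 CPM in EGFP, 21.2 to 23.3 CPM in EYFP and 508 to 567 CPM in wild type, and 0 of 10 passed the test for EGFP over EYFP. B cell markers summed to 1.45 to 2.20 CPM in EGFP, 2.11 to 2.19 CPM in EYFP and 7.90 to 9.58 CPM in wild type. Granulocyte and mast cell markers summed to 7.27 to 9.17 CPM in EGFP, 0.352 to 1.09 CPM in EYFP and 13.9 to 33.5 CPM in wild type. Of the 3 granulocyte and mast cell markers tested, 1 was higher in EGFP than in EYFP. That call was lost with any EGFP or EYFP library left out. In EGFP over wild type 0 of the 3 were higher and 2 lower. The part of these cells in the levels of the 7 genes was not tested. Enterocyte markers summed to 1976 to 2469 CPM in EGFP, 1886 to 2655 CPM in EYFP and 30921 to 53670 CPM in wild type.

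Because Ido1 is an interferon target, other interferon-responsive genes were read beside it. Most of the listed genes were lower in EYFP than in the other groups. Of 19 such genes tested, 14 were higher in EGFP than in EYFP and 0 were lower, and 0 were higher and 5 lower in EGFP than in wild type. With an EGFP or EYFP library left out, 9 (without EGFP replicate 1) to 13 were higher in EGFP than in EYFP. With any library left out, 0 to 3 were higher and 2 to 5 lower in EGFP than in wild type, 2 without EGFP replicate 2 or without wild-type replicate 2. Their summed level was 1364 to 1378 CPM in EGFP, 518 to 572 CPM in EYFP and 2286 to 2527 CPM in wild type. Psmb9, an immunoproteasome subunit, was higher in EGFP than in EYFP (2.28 ± 0.17, adjusted p = 0.00023) and at 0.14 ± 0.16 over wild type (adjusted p = 0.51; -0.03 without wild-type replicate 2). Iigp1, an interferon-induced GTPase, stood at 3.62 and 0.846 CPM in EGFP, 0 and 0 CPM in EYFP, and 0.416 and 0.0603 CPM in wild type. These are 30 and 10 counts in EGFP, 0 and 0 in EYFP, and 4.57 and 1.0 in wild type. The libraries had the order of Ido1 without overlap, but EYFP against wild type rests on few counts. That comparison did not pass edgeR's test (adjusted p = 0.15). For EGFP over wild type Iigp1, at 3.25 ± 1.07, did not pass either (adjusted p = 0.052). It passed without EGFP replicate 2 (adjusted p = 0.036, value 3.99) or EYFP replicate 2 (0.049), with no filter on low counts (0.028) and with only the 4 libraries compared (0.042). Zbp1, a sensor of nucleic acids, was at 0.78 ± 0.27 for EGFP over wild type (adjusted p = 0.053), and passed with EYFP replicate 1 (0.014) or EYFP replicate 2 (0.015) left out, with no filter (0.028), with only the 4 libraries compared (0.0079) and by DESeq2's Wald test (0.03). Whether Ido1 differed from these genes was not tested.

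The other genes of the members' pathways were tested over the whole table by edgeR's quasi-likelihood test, with Benjamini-Hochberg adjustment over 13935 genes and a threshold of 0.05. Of 159 listed genes, 157 had a row and 98 were tested. For EGFP over EYFP, 30 of the 98 were higher (30.6%), 18 lower (18.4%) and 50 did not pass, with a median log2 fold change of 0.30. The number past the test was 28 without EGFP replicate 1 and 29 without EYFP replicate 1. Over all tested genes 36.2% passed, 19.4% higher and 16.8% lower. For EGFP over wild type 21 were higher and 38 lower, where 19.6% of all tested genes were higher and 21.9% lower, or 41.5% in all. For EYFP over wild type 25 were higher and 47 lower, where 27.1% of all tested genes were higher and 33.5% lower, or 60.6% in all. The 3 comparisons share their libraries pairwise.

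Of 19 tested genes of tryptophan use and its sensors, 5 were higher and 4 lower in EGFP than in EYFP. Wars, the tryptophanyl-tRNA synthetase and itself an interferon target, stood at 569 and 529 CPM in EGFP, 161 and 149 CPM in EYFP, and 98.8 and 94.7 CPM in wild type. Its log2 fold change was 1.83 ± 0.15 for EGFP over EYFP (adjusted p = 0.00026) and 2.50 ± 0.15 for EGFP over wild type (adjusted p = 3.3e-05). Afmid, which acts right after Ido1 in the kynurenine pathway, was higher in EGFP than in EYFP (1.36 ± 0.30, adjusted p = 0.01), as was Ccbl2, a kynurenine aminotransferase (1.13 ± 0.30, adjusted p = 0.022). Tph1 and Ddc, the serotonin-making enzymes of enterochromaffin cells, were lower in EGFP than in EYFP (-1.96 ± 0.31, adjusted p = 0.0031, and -1.95 ± 0.24, adjusted p = 0.0011), and so was Tiparp, a target of the aryl hydrocarbon receptor (-1.06 ± 0.28, adjusted p = 0.024). The call of Afmid was lost without EGFP replicate 2 (adjusted p = 0.054) or EYFP replicate 1 (0.07). That of Ccbl2 was lost without EGFP replicate 1 (0.17), EYFP replicate 1 (0.097) or EYFP replicate 2 (0.088). That of Tiparp was lost without EGFP replicate 2 or EYFP replicate 2 (0.12 each).

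Against wild type, 4 genes of this list were higher and 9 lower in EGFP, and 6 were higher and 8 lower in EYFP. Tph1 was higher than in wild type in EGFP (4.12 ± 0.35) and in EYFP (6.08 ± 0.38), and Ddc was higher in EYFP (1.68 ± 0.24). Tdo2, which catalyses the same step as Ido1, had 20 counts in EGFP and 37 in EYFP, against 1 in wild type. Its level was 28.4-fold higher in EGFP than in wild type (95% counting interval 4.55 to 1178) and 40.6-fold higher in EYFP (6.84 to 1645). Tdo2 was thus higher than wild type in both sorted groups, unlike Ido1. Cyp1a1, the main target of the aryl hydrocarbon receptor, was lower in EGFP (-6.65 ± 0.89) and in EYFP (-7.31 ± 0.92), as was Maoa, which breaks down serotonin (-3.64 ± 0.25 in EGFP and -4.55 ± 0.26 in EYFP). Slc6a19, a neutral amino acid transporter of enterocytes, was lower in EGFP (-2.69 ± 0.61), and Nadsyn1, which makes NAD, was lower in EYFP (-2.37 ± 0.23). The call of Tdo2 in EGFP was lost without EGFP replicate 1 (adjusted p = 0.057) or wild-type replicate 2 (0.065), and that of Slc6a19 without EGFP replicate 1 (0.081) or EGFP replicate 2 (0.058) and with no filter on low counts (0.092). The fitted log2 value of Tdo2 without wild-type replicate 2 was 3.48 in EGFP and 3.92 in EYFP, and no count of it remained in wild type without wild-type replicate 1. Without wild-type replicate 2, Slc6a19 was at -1.71. The log2 value of Cyp1a1 in EYFP was -6.24 without EYFP replicate 1 and -6.45 without wild-type replicate 1, and in EGFP it was -5.78 without wild-type replicate 1. No count of Cyp1a1 remained in EYFP without EYFP replicate 2.

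Sptssb works with the large subunits Sptlc1 and Sptlc2 and shares its place with Sptssa. Sptssa did not follow Sptssb, at 67.3 and 68.1 CPM in EGFP, 75.7 and 75.0 CPM in EYFP, and 170 and 214 CPM in wild type. Its log2 fold change of -0.15 ± 0.15 for EGFP over EYFP did not pass the test (adjusted p = 0.45), and it was lower than in wild type in both EGFP (-1.5 ± 0.15) and EYFP (-1.35 ± 0.15). Sptlc2 (0.84 ± 0.15, adjusted p = 0.0048), Sptlc1 (0.47 ± 0.14, adjusted p = 0.036) and Kdsr, the enzyme of the next step (0.91 ± 0.16, adjusted p = 0.0049), were higher in EGFP than in EYFP. The call of Sptlc1 was lost without each EGFP or EYFP library (adjusted p = 0.2 without EGFP replicate 1, 0.077 without EGFP replicate 2, 0.071 without EYFP replicate 1 and 0.2 without EYFP replicate 2) and with DESeq2's size factors (0.052) or Wald test (0.064).

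Over the list of sphingolipid synthesis and turnover, 9 of 32 tested genes were higher and 7 lower in EGFP than in EYFP. The largest rises were in Degs2, a dihydroceramide desaturase (1.26 ± 0.34, adjusted p = 0.032), Ormdl2, a regulator of serine palmitoyltransferase (1.09 ± 0.14, adjusted p = 0.0012), and Sgpp1, a sphingosine phosphate phosphatase (1.05 ± 0.30, adjusted p = 0.033). The related Ormdl1 was at 0.99 ± 0.22 (adjusted p = 0.012). The largest falls were in Fa2h, the fatty acid hydroxylase (-2.23 ± 0.32, adjusted p = 0.002), Cers5, a ceramide synthase (-1.19 ± 0.18, adjusted p = 0.0022), and Sgms1, a sphingomyelin synthase (-0.89 ± 0.14, adjusted p = 0.0023). The call of Degs2 was lost without EGFP replicate 1 (adjusted p = 0.098), EGFP replicate 2 (0.12) or EYFP replicate 1 (0.063) and with no filter on low counts (0.082), and its value was 1.85 without EYFP replicate 2. That of Sgpp1 was lost without any of 5 libraries (0.23 without EGFP replicate 1, where its value was 0.51, 0.054 without EYFP replicate 1, 0.15 without EYFP replicate 2, 0.058 without wild-type replicate 1 and 0.056 without wild-type replicate 2). That of Ormdl1 was lost without EGFP replicate 1 (0.086) or EYFP replicate 2 (0.077).

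Against wild type, 3 genes of the list were higher and 13 lower in EGFP, and 5 were higher and 17 lower in EYFP. Fa2h was higher than in wild type in EGFP (3.32 ± 0.44) and in EYFP (5.56 ± 0.42), as were Cers5 (0.94 ± 0.18 in EGFP and 2.13 ± 0.18 in EYFP) and Smpd1, the acid sphingomyelinase (1.42 ± 0.18 in EGFP and 1.75 ± 0.18 in EYFP). Asah2, the ceramidase of the brush border, was lower in EGFP (-4.66 ± 0.41) and in EYFP (-5.19 ± 0.42). Sphk1, a sphingosine kinase (-3.65 ± 0.63 in EGFP and -4.28 ± 0.65 in EYFP), and Sgpl1, the sphingosine phosphate lyase (-2.52 ± 0.31 in EGFP and -2.16 ± 0.30 in EYFP), were lower as well. Without wild-type replicate 2 Asah2 was at -4.03 in EGFP and -4.57 in EYFP, and Sphk1 in EYFP was at -3.48 without EYFP replicate 1 and -5.88 without EYFP replicate 2. Fa2h, Cers5 and Smpd1 were thus higher than wild type in both sorted groups, whereas Sptssb was at 0 in EYFP.

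No other gene of the Sval1 family could be compared: the 6 listed with a row had 0 counts in all 6 libraries.

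The other chemokines did not share the pattern of Ccl6 and Ccl9. Of 14 tested chemokine and receptor genes, 3 were higher and 0 lower in EGFP than in EYFP, while 0 were higher and 8 lower in EGFP than in wild type, and 1 was higher and 10 lower in EYFP than in wild type. Cx3cl1, the membrane-bound fractalkine (1.94 ± 0.21, adjusted p = 0.00072), and Ccl25, the chemokine of the small intestinal epithelium (1.26 ± 0.18, adjusted p = 0.0018), were higher in EGFP than in EYFP. Cxcl11, an interferon-induced chemokine, had 21 counts in EGFP and 1 in EYFP, a ratio of 27.2 (95% counting interval 4.38 to 1126, adjusted p = 0.021). The call did not hold when EGFP replicate 1 (adjusted p = 0.078), EGFP replicate 2 (0.063), EYFP replicate 1 (0.065) or EYFP replicate 2 was left out (0.093, fitted log2 value 3.72), and no count of it remained in EYFP without EYFP replicate 1.

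Ccl5, which T cells release, was lower than in wild type in EGFP (-4.52 ± 0.57) and in EYFP (-5.07 ± 0.59). Without EGFP replicate 2 its value in EGFP was -6.22, and without EGFP replicate 1 it was -3.76. Ccl4 had 3 counts in EGFP against 94 in wild type, 22.0-fold lower (95% counting interval 7.32 to 109), and Ccl24 had 3 against 86, 20.2-fold lower (6.68 to 99.7). Cxcl11 had 1 count in EYFP against 178 in wild type, 162-fold lower (28.8 to 6448), and Ccl20, a chemokine of the follicle-associated epithelium, was lower in EYFP (-4.34 ± 1.44). Cxcr4, the receptor of Cxcl12, was higher in EYFP than in wild type (2.95 ± 0.79). The fitted log2 value of Cxcl11 in EYFP over wild type was -6.18 without EYFP replicate 2, -7.51 without wild-type replicate 1 and -5.82 without wild-type replicate 2. The call of Ccl24 was lost without EGFP replicate 1 (adjusted p = 0.075), EGFP replicate 2 (0.067) or wild-type replicate 2 (0.071, fitted log2 value -3.47), and that of Cxcr4 without EYFP replicate 1 (0.066) or wild-type replicate 1 (0.078). That of Ccl20 was lost without EYFP replicate 1 (0.14) or wild-type replicate 1 (0.15, value -2.94) and with no filter on low counts (0.081), and its value was -3.28 without EYFP replicate 1 and -5.07 without wild-type replicate 2. No count of Ccl20 remained in EYFP without EYFP replicate 2.

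Of 5 tested genes for other tandem pore potassium channels, 3 were higher and 1 lower in EGFP than in EYFP. Kcnk10 (2.22 ± 0.37, adjusted p = 0.0033), Kcnk5 (1.96 ± 0.30, adjusted p = 0.003) and Kcnk1, the channel most like Kcnk6 (1.15 ± 0.19, adjusted p = 0.0031), were higher, and Kcnk16 was lower (-1.49 ± 0.20, adjusted p = 0.0015). Without EYFP replicate 2 the value of Kcnk5 was 2.56. Kcnk1 was also higher in EGFP than in wild type (1.62 ± 0.19), whereas Kcnk5 and Kcnk10 were lower than in wild type, in EGFP (-2.44 ± 0.28 and -1.60 ± 0.31) and in EYFP (-4.40 ± 0.31 and -3.83 ± 0.36). Without EYFP replicate 2 Kcnk5 was at -5.01 in EYFP over wild type. Kcnk16, known from pancreatic endocrine cells, was higher than in wild type in EGFP (5.43 ± 0.29) and in EYFP (6.92 ± 0.29). Kcnk2 had 46 counts in EGFP and 84 in EYFP, against 2 in wild type, which was 32.7-fold higher in EGFP (95% counting interval 8.55 to 278) and 46.1-fold higher in EYFP (12.4 to 386). The call of Kcnk2 in EGFP was lost without wild-type replicate 1 (adjusted p = 0.055), and no count of Kcnk2 remained in wild type without wild-type replicate 2. Its fitted log2 value in EYFP came to 6.16 with EYFP replicate 1 left out and to 3.94 with EYFP replicate 2 left out.

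Phospholipases A2 held the related genes with the widest change, and 4 of 15 tested were higher and 4 lower in EGFP than in EYFP. Pla2g2a, a secreted enzyme of Paneth cells, stood at 104 and 69.3 CPM in EGFP, 0.705 and 0.589 CPM in EYFP, and 18.3 and 29.6 CPM in wild type, a log2 fold change of 7.04 ± 0.41 for EGFP over EYFP (adjusted p = 0.00018). Pla2g5, another secreted enzyme, stood at 48.1 and 20.5 CPM in EGFP, 0.634 and 0.421 CPM in EYFP, and 7.66 and 2.89 CPM in wild type (5.97 ± 0.75, adjusted p = 0.0022; 5.19 without EGFP replicate 1). Both had the order EGFP, wild type, EYFP without overlap. The cytosolic Pla2g4a was also higher in EGFP than in EYFP (2.64 ± 0.31, adjusted p = 0.00093). Pla2g7, which inactivates platelet-activating factor (-2.0 ± 0.26, adjusted p = 0.0014), Pla2g2d (-1.86 ± 0.34, adjusted p = 0.0063) and Pla2g2f (-1.34 ± 0.17, adjusted p = 0.0012) were lower.

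Against wild type, 9 phospholipases were higher and 2 lower in EGFP, and 8 were higher and 5 lower in EYFP. Pla2g4b had 140 counts in EGFP and 123 in EYFP, against 0 in wild type, at least 66.3-fold higher in EGFP and at least 45.0-fold higher in EYFP. Its EGFP counts were uneven, at 17.72 and 122.21 in EGFP, against 0 and 0 in wild type. Pla2g2c had 25 counts in EGFP against 2 in wild type, 17.8-fold higher (95% counting interval 4.43 to 155), and Pla2g2f was higher in EGFP (3.49 ± 0.19). In EYFP, Pla2g2d (5.34 ± 0.42) and Pla2g7 (5.0 ± 0.31) were higher, while Pla2g2a (-5.18 ± 0.40) and Pla2g5 (-3.25 ± 0.77) were lower than in wild type. Pla2g12b, which acts in lipoprotein secretion, was lower in EGFP (-2.85 ± 0.32) and in EYFP (-2.40 ± 0.31), and Pla2g16 was lower in EGFP (-0.48 ± 0.14, adjusted p = 0.025). The call of Pla2g16 was lost without EGFP replicate 1 (adjusted p = 0.19), EGFP replicate 2 (0.13), wild-type replicate 1 (0.069) or wild-type replicate 2 (0.063) and with only the 4 libraries compared (0.063). That of Pla2g5 in EYFP was lost without EYFP replicate 1 (0.054) or EYFP replicate 2 (0.068), and its value was -2.42 without wild-type replicate 1. Pla2g2d was at 6.32 without wild-type replicate 2, and Pla2g2c in EGFP had a fitted log2 value of 3.27 without wild-type replicate 1 and no count left in wild type without wild-type replicate 2. Part of the family thus differed between the sorted groups, while Pla2g4b was above wild type in both.

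Downstream of these enzymes, 6 of 13 tested genes of arachidonate oxygenation were higher and 2 lower in EGFP than in EYFP. Alox5, which starts leukotriene synthesis (5.14 ± 1.34, adjusted p = 0.028), Ptgs1, the constitutive cyclooxygenase (3.72 ± 1.08, adjusted p = 0.037), and Ltc4s, the leukotriene C4 synthase (2.73 ± 0.58, adjusted p = 0.0097), were higher. Ptgs2, the inducible cyclooxygenase (-2.23 ± 0.67, adjusted p = 0.034), and Alox15 (-1.77 ± 0.41, adjusted p = 0.013) were lower. Several of these calls rest on all libraries. That of Alox5 was lost without EGFP replicate 1 (adjusted p = 0.1, value 4.49), EGFP replicate 2 (0.056), EYFP replicate 1 (0.16, value 4.37) or EYFP replicate 2 (0.11, value 6.49) and with no filter on low counts (0.11). That of Ptgs1 was lost without EGFP replicate 1 (0.13), EGFP replicate 2 (0.085), EYFP replicate 1 (0.12, value 4.42) or EYFP replicate 2 (0.17) and with no filter (0.074). That of Ltc4s was lost without EGFP replicate 1 (0.051), with values of 3.98 without EYFP replicate 1 and 2.13 without EYFP replicate 2. That of Ptgs2 was lost without EGFP replicate 1 (0.12, value -1.61), EYFP replicate 1 (0.079) or EYFP replicate 2 (0.14), and its value was -4.07 without EGFP replicate 2. That of Alox15 was lost without EGFP replicate 2 (0.08) or EYFP replicate 1 (0.094).

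Against wild type, 2 genes of this list were higher and 4 lower in EGFP, and 3 were higher and 5 lower in EYFP. Ptges, a prostaglandin E synthase (3.40 ± 0.67 in EGFP and 2.92 ± 0.67 in EYFP), and Alox15 (2.04 ± 0.49 in EGFP and 3.82 ± 0.47 in EYFP) were higher in both, and Ptgs2 was higher in EYFP (4.04 ± 0.77). Hpgd, which breaks down prostaglandins (-1.80 ± 0.30 in EGFP and -2.98 ± 0.31 in EYFP), and Ltc4s (-1.62 ± 0.46 in EGFP and -4.35 ± 0.56 in EYFP) were lower in both. Lta4h, which makes leukotriene B4, was lower in EGFP (-1.79 ± 0.17), and Alox5 was lower in EYFP (-4.83 ± 1.33). The call of Ltc4s in EGFP was lost without EGFP replicate 1 (adjusted p = 0.1), EGFP replicate 2 (0.12) or wild-type replicate 2 (0.15), and its value in EYFP came to -5.60 with EYFP replicate 1 left out and to -3.75 with EYFP replicate 2 left out. That of Alox5 was lost without EYFP replicate 1 (0.13, value -4.07), EYFP replicate 2 (0.08, value -6.18) or wild-type replicate 2 (0.056, value -2.52) and with no filter (0.086), and its value was -5.66 without wild-type replicate 1. Without wild-type replicate 2, Ptges was at 4.05 in EGFP and 3.57 in EYFP.

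**Figure D3:**
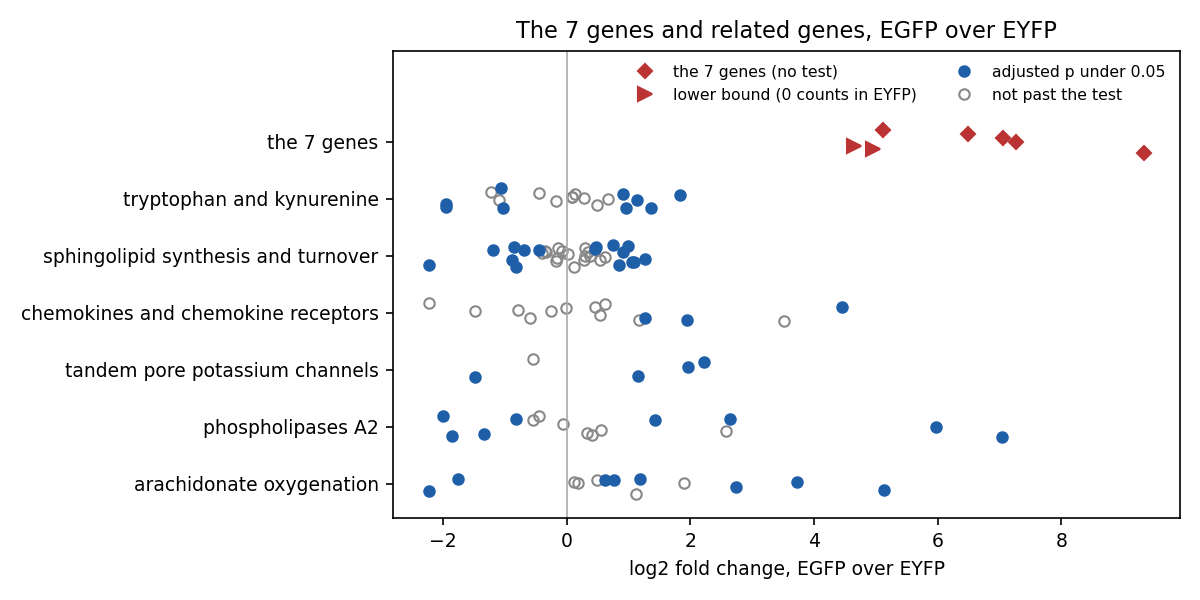
Log2 fold change of EGFP over EYFP for the 7 genes and for the tested genes of 6 related lists; filled circles passed the test, open circles did not, diamonds are the 7 genes with no test, and right-pointing triangles are lower bounds. Related genes lie on both sides of 0 in 5 of the 6 lists by the test, with Pla2g2a and Pla2g5 at the right.

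The genes next to the 7 on their chromosomes were read beside them. Of 37 neighbouring genes, 22 were tested: 8 were higher in EGFP than in EYFP (36.4%), 1 was lower (4.55%) and 13 did not pass, where 19.4% and 16.8% of all tested genes were higher and lower. In EGFP over wild type 3 were higher and 8 lower, and in EYFP over wild type 1 was higher and 13 lower. For EGFP over EYFP, 4 passed without EGFP replicate 1 and 5 without EYFP replicate 1, and for EGFP over wild type 5 passed without either EGFP library and 7 without either wild-type library. Both overlapping antisense genes were higher in EGFP than in EYFP. E230016K23Rik, over Ccl6 and 3.4 kb from Ccl9, was at 2.79 ± 0.48 (adjusted p = 0.0041; 3.39 without EYFP replicate 1), and Pla2g10os, over Pla2g10, had 55 counts in EGFP against 3 in EYFP, a ratio of 23.8 (95% counting interval 7.72 to 119, adjusted p = 0.011). The call of Pla2g10os was lost without EGFP replicate 2 (adjusted p = 0.064) or EYFP replicate 1 (0.056, fitted log2 value 3.34), and no count of it remained in EYFP without EYFP replicate 2.

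Around Kcnk6, 4 neighbours were higher in EGFP than in EYFP. Catsperg1, a subunit of a sperm calcium channel 6.3 kb away, was at 3.02 ± 0.74 (adjusted p = 0.016), 2200002D01Rik at 1.89 ± 0.30 (adjusted p = 0.0039), Spint2, a serine protease inhibitor, at 0.95 ± 0.18 (adjusted p = 0.006) and Yif1b, a trafficking protein 5.1 kb away, at 0.81 ± 0.19 (adjusted p = 0.015). Ggn, a germ cell gene, was lower (-1.86 ± 0.51, adjusted p = 0.025). 2200002D01Rik stood at 28.3 and 39.5 CPM in EGFP, 8.03 and 10.3 CPM in EYFP, and 210 and 346 CPM in wild type, so it was highest in wild type, unlike Kcnk6. The call of Catsperg1 was lost without EGFP replicate 1 (adjusted p = 0.068), EGFP replicate 2 (0.11) or EYFP replicate 1 (0.1, value 2.26), and its value was 4.38 without EYFP replicate 2. That of Ggn was lost without EGFP replicate 1 (0.13), EYFP replicate 1 (0.14) or EYFP replicate 2 (0.053), and its value was -2.46 without EGFP replicate 2. That of Spint2 was lost without EGFP replicate 1 (0.055) or EYFP replicate 1 (0.054), and that of Yif1b without EGFP replicate 1 (0.072), EGFP replicate 2 (0.063) or EYFP replicate 2 (0.091).

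Near the other genes, 1810011O10Rik, 145.2 kb from Ido1, was higher in EGFP than in EYFP (1.89 ± 0.34, adjusted p = 0.0076; 2.54 without EYFP replicate 2), as was Taf15, a transcription factor subunit beside the chemokine cluster (0.86 ± 0.15, adjusted p = 0.0044; 0.055 without EGFP replicate 1). Both were highest in wild type, unlike Ido1, Ccl6 and Ccl9. 1810011O10Rik stood at 301 and 252 CPM in wild type, against 78.9 and 88.8 CPM in EGFP. Taf15 stood at 217 and 182 CPM in wild type, against 159 and 144 CPM in EGFP. Ido2, the paralogue 7.7 kb from Ido1, had 4 counts over all 6 libraries, and Adam18 on the other side had 0. Sval3, 12 kb from Sval1, and Sval2 had 0 counts. The chemokine genes beside the pair did not pass: Ccl5 stood at 0.965 and 4.99 CPM in EGFP, 1.90 and 2.44 CPM in EYFP, and 82.1 and 63.2 CPM in wild type (log2 fold change of EGFP over EYFP 0.54, adjusted p = 0.54), and Ccl3 was at -0.60 (adjusted p = 0.77). Both changed sign when a library was left out, Ccl5 to -1.15 without EGFP replicate 2 and Ccl3 to 0.14 without EGFP replicate 1 or 4.30 without EYFP replicate 1. Nmd3, beside Sptssb (0.45, adjusted p = 0.052), and Bfar, beside Pla2g10 (0.46, adjusted p = 0.063), did not pass either; Bfar passed with only the 4 libraries compared (0.033) or without either wild-type library (0.036 each).

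**Figure D4:**
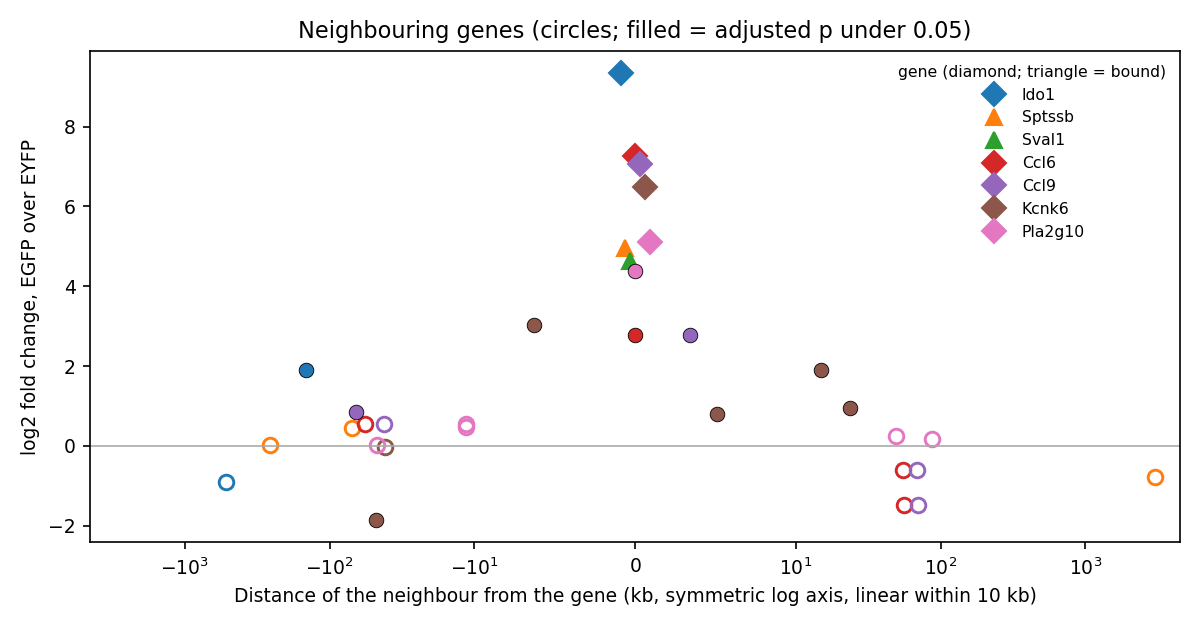
Log2 fold change of EGFP over EYFP (vertical) for the tested neighbours of the 7 genes against their distance in kilobases (horizontal, symmetric log axis); circles are neighbours, filled where the test was passed, coloured by the gene they adjoin, and diamonds or triangles at 0 kb, spread sideways, are the 7 genes with no test or at a lower bound. The height of the 7 genes is how they were chosen; 8 neighbours passed the test as higher and 1 as lower, and Sval1 had no neighbour tested.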

How the data were processed

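Per the labels' protocols, total RNA of 6 libraries of mouse intestinal epithelial cells was purified with RNeasy Micro columns, made into TruSeq RNA libraries and read from 1 end, over 50 bases, by a HiSeq2000. The deposited table holds the authors' estimated counts for each gene and library; Bowtie2, RSEM 1.3.1, FastQC 0.11.8, DESeq2 1.26.0 and build mm10 are named in the submitters' processing notes, with no role or strand setting. The EYFP columns are headed as an EGFP add-on and belong to the samples with that word in their titles; 0 sample columns were left unused, and the authors' deposited comparison tables were not used here.

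Counts were rounded to whole numbers and analysed with edgeR 4.0.16 in R 4.3.3: filterByExpr kept 13935 of 23845 genes (58.4%), library sizes were scaled by TMM, and 1 model with a mean per group was fitted to the 6 libraries (3 residual degrees of freedom) with robust quasi-likelihood F-tests and Benjamini-Hochberg adjustment at 0.05. All p-values are two-sided. Values after ± are standard errors, and the biological coefficient of variation was 19.8%. The labels do not say that replicates came from separate animals, so p-values measure only the spread between these libraries, which may be technical in EGFP and EYFP; the wild-type libraries differed in Xist and Ddx3y. The procedure was also run on simulated data in which few genes changed and all genes had the same spread. That run does not test it where many genes change, as here. DESeq2 1.42.0, its size factors, no filter, a replicate block, only the 4 libraries compared and leaving out each library were tried. With 1 library left in a group, that library is assumed to vary like the other groups. Counting intervals are exact, at 95%.

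The 7 genes, the pathway and marker lists and the tests were chosen with earlier results of these data known. Genes named were the 7, in each list up to 3 past the test with the largest change in each direction, neighbours past the test and the nearest on each side, of up to 3 neighbours a side, the 10 genes nearest to the mean profile and the nearest to each member. Sptssa, Sptlc1, Sptlc2, Kdsr, Ormdl1, 2200002D01Rik's levels, Psmb9, Iigp1, Zbp1 and single immune markers were added after their values were seen. Gene positions came from RefSeq, strands and transcript lengths from GENCODE M21 (GRCm38), and promoters from RefSeq (GRCm38.p6). The row named Clca1 was left out of the goblet cell list because RefSeq now calls that gene Clca3a1.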

Additional observations from a re-analysis of the deposited data

How the results depend on the processing

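Leaving out each library moved the number of genes past the test for EGFP over EYFP between 2392 (without EGFP replicate 1; 2737 without EYFP replicate 1 and 2932 without EYFP replicate 2) and 5483, against 5045 with all 6 libraries; among pathway genes the number was 28 to 49 (48 with all), among neighbours 4 to 10 (9 with all), and among neighbours for EGFP over wild type 5 to 11 (11 with all). With only the 4 libraries compared, the median log2 fold change of the 7 genes for EYFP over wild type was -2.82, with 5 of the 7 genes fitted. The main value was -4.2, the fitted value of Sval1, which had 0 counts in EYFP. The other counts and medians stayed within 1.5 times or in direction under the other settings. The value of Ccl3 for EGFP over EYFP ranged from -4.95 to 4.3 with a library left out (0.14 without EGFP replicate 1 and 4.3 without EYFP replicate 1, both of the other sign), and that of Ccl5 from -1.15 (without EGFP replicate 2) to 1.15; that of Psmb9 for EGFP over wild type ranged from -0.03 (without wild-type replicate 2) to 0.33. The replicate numbers did not pair the libraries: same-numbered deviations correlated at 0.0224 for EGFP and EYFP, 0.0964 for EGFP and wild type and 0.0143 for EYFP and wild type. A fit with the replicate block called 5444 genes for EGFP over EYFP, 48 pathway genes and 10 neighbours; it lost the calls of Ptgs1 (3.73, adjusted p = 0.051) and of Ccl20 in EYFP over wild type (-4.45, adjusted p = 0.065), gained those of Iigp1 (3.24, adjusted p = 0.014) and Zbp1 (0.79, adjusted p = 0.035) in EGFP over wild type, and its median for the 7 genes was -4.17 for EYFP over wild type. DESeq2's Wald test called 5144 genes for EGFP over EYFP, 2498 higher and 2646 lower, and its size factors gave 2423 and 2696, against 2702 and 2343 by TMM. The size factors moved the median of all genes by 0.11 for EYFP over wild type, and the Wald test's by 0.12. Marker counts without each library were added after the data were seen. Depth limits Sptssb and Sval1, with 0 counts in EYFP, where 3 counts over the group correspond to 0.115 CPM.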
